A study of Mus musculus with 4 samples.

Results

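The ligands through which an antigen-presenting cell raises or dampens the response of a T cell were followed here in medullary thymic epithelial cells (mTECs). They were 10 genes picked by symbol from the 23337 genes of the count table. *Cd80*, *Cd86*, *Cd274*, *Pdcd1lg2*, *Icosl*, *Cd276* and *Vtcn1* encode ligands of the B7 family, *Cd70* and *Tnfsf4* encode ligands of the TNF family, and *Cd83* encodes an immunoglobulin-family surface protein. All 10 were found in the table and all 10 passed the filter on low counts. The libraries were made from mTECs sorted as CD45-EpCAM+UEA-1+Ly51- cells from the thymus of 4-week-old C57BL/6 mice, 2 libraries from wild-type mice (WT 1 and WT 2) and 2 from mice given the genotype Sirt6-/- in the labels. In the study these are *Sirt6* cKO mice, in which *Foxn1*-cre, active in thymic epithelium, recombines a *Sirt6* flox/flox allele, and the wild-type mice are Cre-negative, either littermates or matched in age. The libraries are called *Sirt6* cKO 1 and *Sirt6* cKO 2 here. Nothing in the sources used here says how many mice went into a library, so the p-values measure only the spread between these libraries, which may in part be technical.

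Mature mTECs present self-antigens to newly formed thymocytes, and costimulatory ligands help to decide whether a self-reactive cell is deleted or becomes a regulatory T cell. CD80 and CD86 bind the same pair of receptors on T cells, the activating CD28 and the inhibitory CTLA4. PD-L1, encoded by *Cd274*, and PD-L2, encoded by *Pdcd1lg2*, bind the inhibitory receptor PD-1, the ICOS ligand binds ICOS, CD70 binds CD27, and OX40L, encoded by *Tnfsf4*, binds OX40. Surface CD80 is the marker by which mature mTECs are usually separated from immature ones.

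The deposited counts summed to between 61102704 and 65907745 per library, and the members had between 140 (*Vtcn1*) and 22216 (*Cd274*) counts in single libraries. The targeted gene, *Sirt6*, had 622 and 755 counts in WT against 882 and 835 under the *Sirt6* cKO label and so was not lower there. Counts over the whole gene may not show the loss of a floxed part, so this does not check the labels, on which each direction below rests. Thymic epithelial genes were present in every library, with 797.87 TPM or more for *Epcam* and 119 TPM or more for *Foxn1*. Neither gene is restricted to mTECs, although both are in the mTEC list used here. Genes of CD45-positive cells, which the sort should remove, were also read. The 8 macrophage markers summed to between 6434 and 10594 TPM in WT and between 3993 and 4282 TPM in the libraries labelled *Sirt6* cKO, with *Lyz2* the highest. The log2 fold change was negative for all 8 of them and past an unadjusted p of 0.05 for 4, *Emr1*, *Cd68*, *Lyz2* and *C1qa* (quasi-likelihood test of edgeR). Of all genes tested 3.32% were lower at that threshold. The 9 thymocyte markers summed to between 980 and 1384 TPM in WT and between 741 and 1247 TPM in *Sirt6* cKO, and the 5 B cell markers read here to between 203 and 244 TPM and between 162 and 212 TPM. The 10 dendritic cell markers summed to between 803 and 909 TPM in WT and between 1214 and 1287 TPM in *Sirt6* cKO, most of it from *Ccr7* and *Fscn1*. Among defining markers, *Pax5* of B cells had 0 counts in WT 1 and *Sirt6* cKO 2 and at most 12 elsewhere, and *Fcgr1* of macrophages had at most 46. In bulk libraries such as these, fewer cells of a type and less RNA per cell cannot be told apart.

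**Figure D1:**
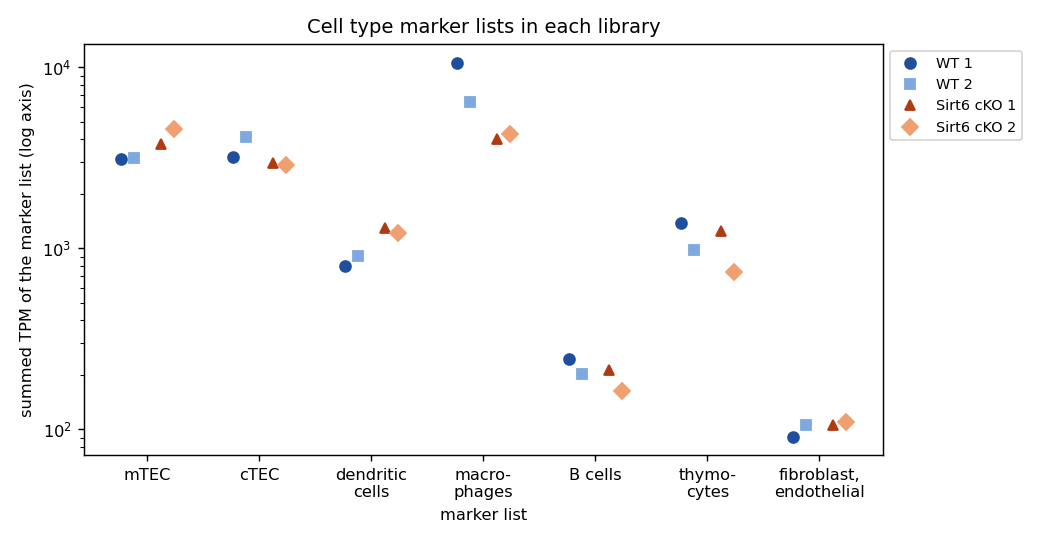
Summed TPM (log axis) of 7 cell type marker lists, with 1 point for each of the 4 libraries. The macrophage list is higher in both WT libraries than in both libraries labelled Sirt6 cKO, with WT 1 highest at 10594 TPM, and the mTEC list lies between 3096 and 4536 TPM.

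The members spanned a wide range of levels. On the TPM scale, the abundance that StringTie corrects for gene length, which allows genes to be set side by side, *Cd86* (171 ± 19.2 TPM; SD, n = 2), *Cd83* (167 ± 111 TPM; SD, n = 2) and *Cd274* (164 ± 2.46 TPM; SD, n = 2) were highest in WT. These 3 levels overlapped between neighbours and could not be ordered. *Cd80* followed at 90.0 ± 3.04 TPM (SD, n = 2) and *Pdcd1lg2* at 41.6 ± 0.811 TPM (SD, n = 2), each without overlap with its neighbours by mean. *Cd80* did overlap with *Cd83*, which had 88.6 TPM in WT 2. *Icosl* (26.8 ± 9.66 TPM; SD, n = 2), *Tnfsf4* (24.5 ± 9.19 TPM; SD, n = 2) and *Cd70* (21.7 ± 0.00812 TPM; SD, n = 2) again overlapped between neighbours. *Cd276* stood at 14.6 ± 5.57 TPM (SD, n = 2), and *Vtcn1* was lowest, with 1.76 TPM in WT 1 and 2.23 TPM in WT 2.

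In the libraries labelled *Sirt6* cKO the upper part of this order differed. *Cd274* ranked first with 213 ± 10.3 TPM (SD, n = 2), followed by *Cd86* with 194 ± 56.4 TPM (SD, n = 2) and *Cd80* with 172 ± 19.6 TPM (SD, n = 2), which overlapped between neighbours. *Cd80* lay below both values of *Cd274* in either group. Its rank went from 4 to 3 because the mean of *Cd83*, which WT 1 alone put above that of *Cd80* in WT, ranked below it here. *Cd83* came next with 120 ± 12.4 TPM (SD, n = 2). *Icosl*, *Pdcd1lg2* and *Tnfsf4* overlapped between neighbours at means from 44.3 to 54.9 TPM, and *Cd70*, *Cd276* and *Vtcn1* kept ranks 8, 9 and 10.

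**Figure D2:**
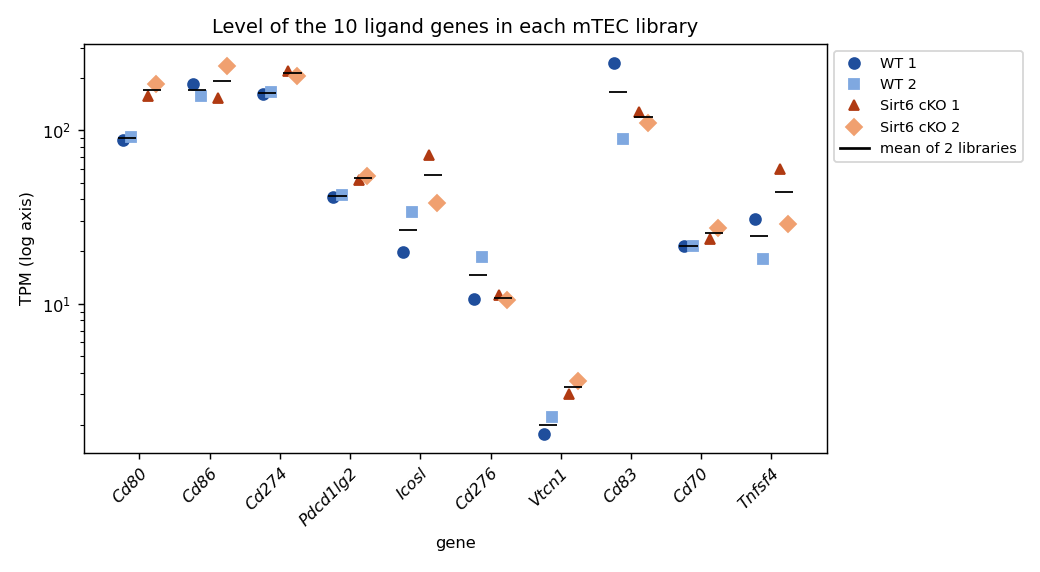
TPM (log axis) of the 10 ligand genes, with 1 point for each library and a bar at the mean of the 2 libraries of a group. The groups are apart for Cd80, with 87.8 and 92.1 TPM in WT against 158 and 186 TPM, while for Cd83 a single library, WT 1 at 246 TPM, stands above the other 3.

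Promoter windows were available in RefSeq for 6 of the 10 members on GRCm38.p6. They are printed for the 3 of these whose 250 bases before the RefSeq start hold no annotated exon, which are also members in which both libraries labelled *Sirt6* cKO were above both WT libraries. Capitals mark matches to the κB consensus, the DNA element bound by NF-κB, or to GAGGAA, the core of the PU-box bound by SPIB and its relatives, on either strand. The window of *Cd80* is chr16:38458683-38458932, plus strand, which lies inside the GENCODE gene. The RefSeq start just after this window is 3372 bases from the start of the GENCODE model. The windows of *Pdcd1lg2* and *Vtcn1* are chr19:29410669-29410918 and chr3:100825209-100825458, both on the plus strand.
Cd80: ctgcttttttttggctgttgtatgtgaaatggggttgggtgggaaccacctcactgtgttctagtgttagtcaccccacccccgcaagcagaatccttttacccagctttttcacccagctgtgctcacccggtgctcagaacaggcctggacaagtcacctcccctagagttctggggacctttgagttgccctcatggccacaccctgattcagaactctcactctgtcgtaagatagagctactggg
Pdcd1lg2: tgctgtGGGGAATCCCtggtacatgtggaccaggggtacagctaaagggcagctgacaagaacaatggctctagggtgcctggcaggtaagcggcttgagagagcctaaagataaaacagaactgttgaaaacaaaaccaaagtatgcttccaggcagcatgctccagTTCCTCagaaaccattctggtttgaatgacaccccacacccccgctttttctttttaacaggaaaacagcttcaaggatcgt
Vtcn1: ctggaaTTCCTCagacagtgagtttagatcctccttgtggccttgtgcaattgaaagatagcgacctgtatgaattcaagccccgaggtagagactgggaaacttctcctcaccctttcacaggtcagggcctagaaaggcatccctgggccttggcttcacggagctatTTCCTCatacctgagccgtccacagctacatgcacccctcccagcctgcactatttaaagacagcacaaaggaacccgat
The window of *Cd80* held neither motif. That of *Pdcd1lg2* held a κB match at positions -244 to -235 from the start and a GAGGAA match, on the minus strand and so printed as TTCCTC, at -82 to -77. That of *Vtcn1* held 2 GAGGAA matches on the minus strand, at -244 to -239 and -80 to -75. The windows of *Cd274* and *Icosl* held neither. That of *Cd276*, whose log2 fold change was below 0, held a GAGGAA match on the minus strand at -126 to -121. No match overlapped one of the other motif. Among all 32851 windows of this length, 3.9% held the κB consensus and 23.3% held GAGGAA, against 1 and 3 of the 6 members.

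*Cd80*, the ligand that marks mature mTECs, showed the clearest difference of the set. It lies on the plus strand at chr16:38455561-38496335 of GRCm38, the assembly of mm10. WT 1 and WT 2 gave 4508 and 4469 counts for it, *Sirt6* cKO 1 gave 7434 and *Sirt6* cKO 2 gave 9226. Both libraries labelled *Sirt6* cKO were above both WT libraries, which themselves differed little. Scaled to CPM, the counts divided by the normalised library size, its mean was 69.5 ± 0.957 (SD, n = 2) in WT against 133 ± 14.6 (SD, n = 2) in *Sirt6* cKO, a ratio of 1.92. The log2 fold change was 0.94 (standard error 0.20, 95% interval 0.45 to 1.43), and edgeR's quasi-likelihood test gave an unadjusted p of 0.00403. The adjusted p was 0.54 with edgeR (over 18547 genes) and 0.0108 with DESeq2 (over 18961 genes). The summed dendritic cell and mTEC markers were also higher in both libraries labelled *Sirt6* cKO, at 1214 TPM or more against at most 909 TPM and at 3787 TPM or more against at most 3154 TPM. Of the 10 dendritic cell markers 5 had a log2 fold change above 0 and 1, *Fscn1*, passed the unadjusted p with a higher level. So did 3 of the 7 mTEC markers and 5.27% of all genes. The part of these markers in the level of *Cd80* was not tested. The unadjusted p stayed under 0.05 in all 12 other ways of processing the data that were tried, where the log2 fold change lay between 0.81 and 1.05.

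*Cd86*, whose protein shares both receptors with CD80, did not differ beyond the spread between replicates. It lies on the same chromosome, on the minus strand at chr16:36603869-36666081, 1789479 bases from *Cd80*. WT 1 and WT 2 had 14144 and 11402 counts of it, *Sirt6* cKO 1 had 10833 and *Sirt6* cKO 2 had 17359. In CPM these were 216, 179.1, 179.5 and 271, so that the groups overlapped. Its log2 fold change was 0.19 (standard error 0.25, 95% interval -0.45 to 0.82), and it turned to -0.15 without *Sirt6* cKO 2. Its 95% interval overlaps that of *Cd80*, the value was 0.46 without *Sirt6* cKO 1, and the difference between the changes of the 2 genes was not tested. Within a library, the TPM ratio of *Cd80* to *Cd86* was 0.476 (WT 1), 0.585 (WT 2), 1.02 (*Sirt6* cKO 1) and 0.794 (*Sirt6* cKO 2). It was thus higher in both libraries labelled *Sirt6* cKO, although an exact permutation test of 2 libraries against 2 cannot go below p = 0.333. The summed macrophage markers were lower in both of these libraries. The summed dendritic cell markers were higher, with most of the sum from *Ccr7* and *Fscn1*, and 5 of those 10 markers had a log2 fold change below 0. The part of these markers in the level of *Cd86* and in this ratio was not tested.

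The PD-1 ligands, encoded by neighbouring genes, had small and similar differences. *Cd274* lies at chr19:29367455-29388095 and *Pdcd1lg2* at chr19:29410919-29471161, both on the plus strand with 22823 bases between them. *Cd274* had 17791 (WT 1), 17173 (WT 2), 22216 (*Sirt6* cKO 1) and 21904 (*Sirt6* cKO 2) counts. *Pdcd1lg2* had 4230 and 4109 counts in WT against 4908 and 5450 under the *Sirt6* cKO label. For both genes the replicates lay close together and the groups did not overlap.

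The log2 fold change of *Cd274* was 0.39 (standard error 0.15, 95% interval 0.01 to 0.77) with an unadjusted p of 0.0477 in edgeR's test. This call was lost in each of the 12 other ways of processing, where p lay between 0.0521 and 0.172 and the log2 fold change between 0.30 and 0.43. For *Pdcd1lg2* the log2 fold change came to 0.36 (standard error 0.20, 95% interval -0.13 to 0.86) and was not past the unadjusted threshold. The TPM ratio of *Cd274* to *Pdcd1lg2* was 3.95 (WT 1), 3.92 (WT 2), 4.25 (*Sirt6* cKO 1) and 3.77 (*Sirt6* cKO 2). Both groups overlapped in this ratio. Exons of *Cd274* overlap those of *AC119228.1*, a gene on the other strand, by 511 bases, and without strand-specific counting the reads of the 2 genes cannot be told apart there.

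*Icosl* encodes the only known ligand of ICOS and lies at chr10:78069302-78083913 on the plus strand. It had 1653 (WT 1), 2633 (WT 2), 5478 (*Sirt6* cKO 1) and 3051 (*Sirt6* cKO 2) counts. The groups did not overlap, but WT 2 and *Sirt6* cKO 2 lay close together, while the other libraries lay far apart. The mean was 33.3 ± 11.4 CPM (SD, n = 2) for WT against 69.2 ± 30.5 CPM (SD, n = 2) for *Sirt6* cKO, a ratio of 2.08. The log2 fold change was 1.05 (standard error 0.42, upper end of the 95% interval 2.11), and the unadjusted p of edgeR's test lay just above 0.05. It was the largest point estimate among the members and depended on single libraries, with 0.52 without *Sirt6* cKO 1 and 1.45 without WT 2. DESeq2 gave it an unadjusted p of 0.0153 and an adjusted p of 0.24.

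*Cd276* and *Vtcn1* encode B7-H3 and B7-H4, whose receptors on T cells are less well established. *Cd276*, at chr9:58524298-58555437 on the minus strand, had 1026 (WT 1), 1685 (WT 2), 990 (*Sirt6* cKO 1) and 974 (*Sirt6* cKO 2) counts. WT 2 alone was high, and the other 3 libraries lay close together. Its log2 fold change was -0.42 (standard error 0.36, 95% interval -1.32 to 0.49) and came to 0.012 without WT 2. Its exons overlap those of *Gm10657* on the other strand by 416 bases, with the same limit.

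*Vtcn1*, at chr3:100825459-100896922 on the plus strand, was the weakest member, with 140 and 167 counts in WT against 220 and 275 under the *Sirt6* cKO label. The groups did not overlap. The log2 fold change of 0.74 had a standard error of 0.58 and a 95% interval from -0.71 to 2.19, so a difference of the size seen for *Cd80* was not detectable at this depth and spread.

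*Cd83*, which stabilizes MHC class II and CD86 at the cell surface and is also high in cortical epithelium, mature dendritic cells and activated B cells, varied most between the WT libraries. It lies at chr13:43784775-43803132 on the plus strand. It had 15933 (WT 1), 5420 (WT 2), 7632 (*Sirt6* cKO 1) and 6960 (*Sirt6* cKO 2) counts. In CPM, WT 1 was 2.86 times WT 2, and the libraries labelled *Sirt6* cKO lay between the WT libraries. Its log2 fold change was -0.48 (standard error 0.49, 95% interval -1.71 to 0.74), but it was 0.44 without WT 1 and -1.05 without WT 2. WT 1 was also the library with the highest summed markers of macrophages (10594 TPM), B cells (244 TPM) and thymocytes (1384 TPM). The dendritic cell markers summed lowest in WT 1 (803 TPM), most of it from *Ccr7* and *Fscn1*. Of that list *Clec9a*, *Siglech*, *Zbtb46*, *Ccr7* and *Fscn1* were lowest in WT 1, but *Itgax*, *Xcr1*, *Flt3* and *Batf3* were highest there. The cortical markers summed to 3180 TPM in WT 1 and 4094 TPM in WT 2, most of it from *Krt8* (2232 and 3195 TPM). Of the others, *Prss16*, *Psmb11*, *Cxcl12* and *Dll4* were higher in WT 1 than in WT 2, and *Ly75* and *Ctsl* were lower. The part of all these markers in the level of *Cd83* was not tested.

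Neither TNF family ligand passed an unadjusted p of 0.05 in edgeR's test. *Cd70*, at chr17:57145997-57149777 on the minus strand, had 551 (WT 1), 521 (WT 2), 550 (*Sirt6* cKO 1) and 678 (*Sirt6* cKO 2) counts, or 8.42, 8.18, 9.11 and 10.6 CPM. In CPM the groups lay just apart. Its log2 fold change was 0.25 (standard error 0.34, 95% interval -0.60 to 1.09). *Tnfsf4*, at chr1:161395409-161418410 on the plus strand, had 1505 (WT 1), 826 (WT 2), 2665 (*Sirt6* cKO 1) and 1360 (*Sirt6* cKO 2) counts. The value of *Sirt6* cKO 2 lay between the WT libraries, so the groups overlapped. The log2 fold change was 0.86 (standard error 0.48, 95% interval -0.35 to 2.07), with 0.24 without *Sirt6* cKO 1 and 1.31 without WT 1. In edgeR's test its unadjusted p was 0.129, and 0.0468 with the replicate number as a block, where the log2 fold change was 0.82.

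**Figure D3:**
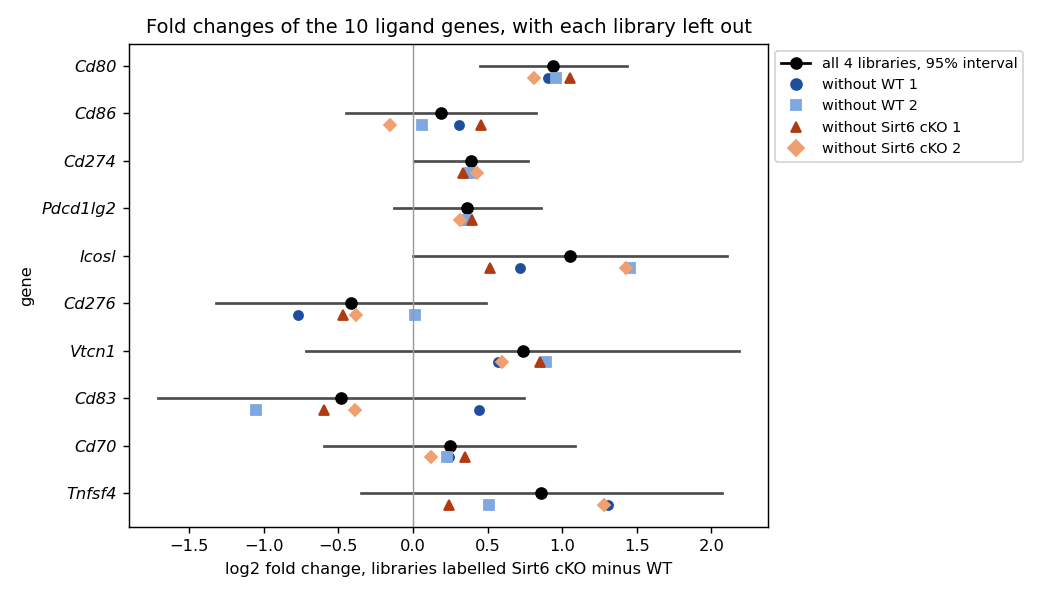
Log2 fold change of each ligand gene, libraries labelled Sirt6 cKO minus WT, as a black point with its 95% interval from edgeR's quasi-likelihood test, and below it the value with each library left out. Cd80 stays between 0.81 and 1.05, whereas Cd83, Cd276 and Cd86 change sign when 1 library is left out.

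As a list, 8 of the 10 members had a log2 fold change above 0 and 2 had one below 0. The median was 0.38, where the median over all genes tested was 0.00 and 49.6% of genes lay above 0. In edgeR's test 2 members, *Cd80* and *Cd274*, passed an unadjusted p of 0.05 with a higher level and 0 with a lower one, where 5.27% of all genes were higher, 3.32% lower and 8.58% called in either direction. DESeq2 also gave 2 higher members at the unadjusted p, *Cd80* and *Icosl*, against 5.8% of genes. At an adjusted p of 0.05, edgeR called 0 members higher and 0 lower (0.00539% of genes higher), and DESeq2 called only *Cd80* (1.06% of genes higher). In 6 members the groups did not overlap and the libraries labelled *Sirt6* cKO were higher, as in 21.6% of all genes, and in 0 members they were lower without overlap, as in 20.3% (41.9% in either direction). These were *Cd80*, *Cd274*, *Pdcd1lg2*, *Icosl*, *Vtcn1* and *Cd70*, and in the same 6 the difference of the group means was larger than both gaps between replicates, as in 28.2% of all genes in either direction. The members were chosen as a family with earlier results known, and these counts describe them without a test of the list.

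*Epcam*, a gene of the epithelial cells themselves, was also higher in both libraries labelled *Sirt6* cKO, with a mean of 816 ± 26.0 TPM (SD, n = 2) in WT and 1130 ± 99.1 TPM (SD, n = 2) in *Sirt6* cKO. Each member was therefore also divided by the TPM of *Epcam* in the same library, a scaling chosen after the values were seen. The ratios rest on this 1 gene and not on epithelial genes as a set. Of the 7 mTEC markers 4, *Epcam* among them, were higher without overlap in CPM and 1, *Cldn3*, was lower. *Krt5* and *Krt14* overlapped, and *Krt8* of the cortical list was lower without overlap. Relative to *Epcam*, *Cd80* stood at 0.110 in both WT libraries against 0.149 and 0.155 in *Sirt6* cKO 1 and 2. The groups did not overlap, and the mean log2 ratio was higher by 0.46. *Vtcn1* was the other member higher without overlap, by 0.26. *Cd274*, at 0.203 and 0.198 in WT against 0.208 and 0.171 under the *Sirt6* cKO label, overlapped between the groups. *Pdcd1lg2*, *Cd70* and *Cd276* were lower without overlap, with differences in the mean log2 ratio of -0.11, -0.23 and -0.84, and the remaining members overlapped. Against *Epcam*, 5.89% of all genes were higher without overlap and 47.5% were lower.

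**Figure D4:**
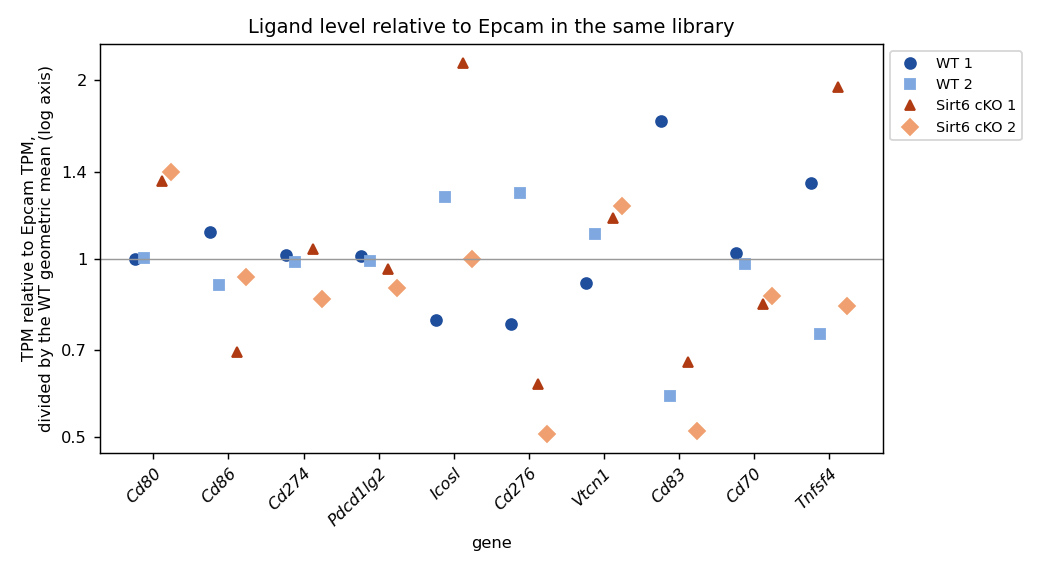
TPM of each ligand gene divided by the TPM of Epcam in the same library, shown relative to the geometric mean of the 2 WT libraries (log axis), with 1 point for each library. Cd80 is above 1 in both libraries labelled Sirt6 cKO, Cd274 and Pdcd1lg2 stay near 1, and Cd276 is below both WT values.

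The receptors of these ligands act mainly on T cells. All 13 receptor genes listed here were read in the sorted libraries and passed the filter. The list also holds receptors of other ligands, such as *Cd160*, *Tnfrsf8* and *Tnfrsf9*. Those paired with a member are *Cd28*, *Ctla4*, *Icos*, *Pdcd1*, *Cd27* and *Tnfrsf4*, which encodes OX40. *Icos* had 44.6 and 40.7 TPM in WT against 14.6 and 15.4 TPM under the *Sirt6* cKO label. Its counts were thus lower in both of the latter, in the opposite direction to those of *Icosl*, with a log2 fold change of -1.50 (standard error 0.24). The adjusted p was 0.54 with edgeR and 9.86e-06 with DESeq2. The TPM ratio of *Icosl* to *Icos* was 0.447 in WT 1 and 0.825 in WT 2, and 4.94 and 2.46 in *Sirt6* cKO 1 and 2.

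*Pdcd1*, which encodes PD-1, had 44.1 and 40.9 TPM in WT against 20.5 and 23.0 TPM under the *Sirt6* cKO label. Its log2 fold change was -0.96 (standard error 0.26), again without overlap between the groups. For *Cd160*, the gene of a receptor for HVEM, the log2 fold change came to -2.60 (standard error 0.93). The value depended on single libraries and its call was lost at -1.41 without WT 2 and at -1.99 without *Sirt6* cKO 1. The call of *Pdcd1* was lost without *Sirt6* cKO 1, at -0.88, and that of *Icos* held in all 12 other ways of processing. *Cd28* lay at -0.33 (95% interval -0.84 to 0.18) and *Ctla4* at 0.53 (95% interval -0.33 to 1.39), so neither receptor of CD80 passed an unadjusted p of 0.05. *Cd27*, with the highest summed count of the list, had 190 (WT 1), 43.9 (WT 2), 149 (*Sirt6* cKO 1) and 56.8 (*Sirt6* cKO 2) TPM, and differed more within the groups than between them. *Tnfrsf8*, which encodes CD30, was above it in WT 2 (118 TPM) and in *Sirt6* cKO 2 (105 TPM). In all, edgeR's test put 0 of the 13 receptors higher and 3 lower at the unadjusted threshold, against 5.27% and 3.32% of all genes. DESeq2 gave 0 and 4. The thymocyte markers, 0 of 9 of which passed that threshold, summed to 741 TPM in *Sirt6* cKO 2 and 980 TPM or more elsewhere. In CPM 2 of the 9, *Cd4* and *Cd3d*, were lower without overlap in the libraries labelled *Sirt6* cKO, and 0 were higher. Among all genes 20.3% were lower and 21.6% higher without overlap. The part of the thymocyte markers in the receptor levels was not tested.

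**Figure D5:**
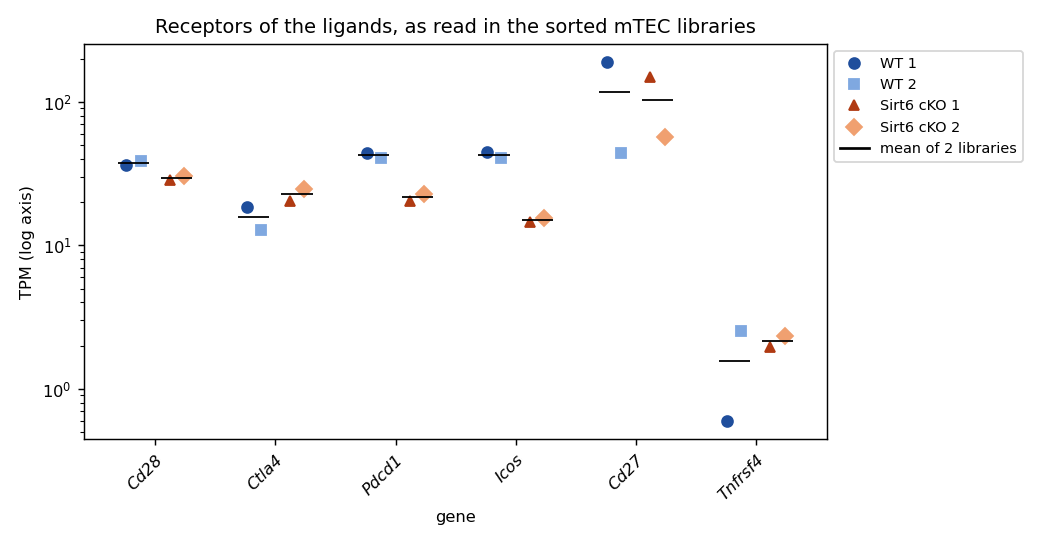
TPM (log axis) of 6 receptors of the ligands, with 1 point for each library and a bar at the mean of the 2 libraries of a group. Icos and Pdcd1 are lower in both libraries labelled Sirt6 cKO, from 40.7 TPM or more to 23.0 TPM or less, and Cd27 differs mainly between the replicates of each group.

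Of 31 other ligand genes of the same kind, 30 passed the filter. In edgeR's test 3 of them were higher and 1 was lower at the unadjusted threshold, against 5.27% and 3.32% of all genes. At an adjusted p of 0.05 edgeR called 0 of them. DESeq2 gave 4 and 1 unadjusted and 1 adjusted. The median log2 fold change with edgeR was 0.16. *Icam1*, the adhesion ligand of LFA-1 and the highest of the list, had 1341 and 1453 TPM in WT against 1714 and 2035 TPM under the *Sirt6* cKO label (log2 fold change 0.43, standard error 0.15). *Cd200*, an inhibitory ligand, had 59.0 and 37.6 TPM in WT against 74.6 and 94.0 TPM under the *Sirt6* cKO label (log2 fold change 0.81, standard error 0.31). *Tnf*, which encodes the founding cytokine of the TNF family, had the other higher level (log2 fold change 0.93, standard error 0.37). These 3 calls were lost when libraries were scaled by the upper quartile or by total counts alone, which gave 0 higher ligands. Each was also lost with single libraries left out, with the lowest values at 0.29 for *Icam1* without *Sirt6* cKO 2, 0.50 for *Cd200* without WT 2 and 0.52 for *Tnf* without *Sirt6* cKO 1.

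*Ltb*, which encodes lymphotoxin β, was the lower one, with 112 and 107 TPM in WT against 56.6 and 46.3 TPM under the *Sirt6* cKO label. Its log2 fold change was -1.08 (standard error 0.25), and DESeq2 gave an adjusted p of 0.0160. Genes of CD45-positive cells were also read in these libraries, and the part of such cells in the level of *Ltb* was not tested. *Cd40*, the receptor through which T cells drive mTEC maturation, had 369 and 300.5 TPM in WT against 431 and 499.8 TPM under the *Sirt6* cKO label. The groups did not overlap, and its unadjusted p of 0.0513 in edgeR's test lay above the threshold. The ligand of 4-1BB, *Tnfsf9*, had 245 and 221 TPM in WT against 271 and 282 TPM under the *Sirt6* cKO label, a log2 fold change of 0.26 (95% interval -0.19 to 0.70). In TPM it stood above every one of the 10 members in each library, except *Cd83* in WT 1.

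Among 14 genes of mTEC maturation, 5 were higher and 2 lower at the unadjusted threshold of edgeR's test, against 5.27% and 3.32% of all genes. The higher ones were *Aire*, *Spib*, *Relb*, *Nfkb2* and *Tnfrsf11b*, with log2 fold changes of 0.65, 1.13, 0.76, 0.62 and 0.48, and the lower ones were the chemokine genes *Ccl21a* (-2.37) and *Ccl19* (-0.70). The calls of *Spib* and *Ccl21a* held in all 12 other ways of processing. That of *Tnfrsf11b* was lost in 9 of them, DESeq2 included, with 0.24 without *Sirt6* cKO 2. That of *Nfkb2* was lost in 6, with 0.37 without WT 1. *Aire* and *Relb* lost theirs without WT 1 and without *Sirt6* cKO 2, and *Ccl19* lost its call without WT 2 and without *Sirt6* cKO 1. Over the 4 libraries, the log2 CPM profile of *Cd80*, centred on its mean, lay nearest to those of *Relb* (Euclidean distance 0.225), *Spib* (0.229) and *Vtcn1* (0.277) among the 119 other genes of the lists used here. With 4 libraries in 2 groups, such nearness rests mainly on the difference between the groups. Genes of MHC class II presentation, whose proteins present antigen beside these ligands, lay on both sides of 0 and none of the 4 passed the unadjusted threshold. *H2-Aa* had a log2 fold change of 0.09 (95% interval -0.21 to 0.39) and the invariant chain gene *Cd74* one of -0.06 (95% interval -0.50 to 0.39), with overlapping groups. *H2-Ab1* was at -0.24 (95% interval -0.58 to 0.10) and *Ciita*, the gene of the class II transactivator, at 0.80 (95% interval -0.08 to 1.68), both without overlap between the groups.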

How the data were processed

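mTEC RNA was sequenced in 4 libraries. Per the labels and the study's methods, reads passed Trim Galore, HISAT2 2.1.0 against mm10 and StringTie 1.3.3, which the authors ran. The gene annotation, the counting of strand and the exons removed from *Sirt6* are not given in the sources used here. The deposited counts are whole numbers per gene without normalization, and the deposited TPM values carried a line with the column total, which was dropped.

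Counts were tested with edgeR 4.0.16 (TMM, filterByExpr with a minimum count of 10, glmQLFit, glmQLFTest) in R 4.3.3, with 18547 of 23337 genes tested. Benjamini-Hochberg adjustment ran over all tested genes. Standard errors are the log2 fold change divided by the root of F. The biological coefficient of variation was 0.557. Alternatives were DESeq2 1.42.0, limma 3.58.1 on log2(TPM + 1) and log2(TPM + 0.1), which understate changes of low genes, upper quartile and library size scaling, other filters, a replicate block and each library left out. The members and gene lists were chosen with earlier results of these data known. Named by rule were all members, *Sirt6*, the other ligands and maturation genes past an unadjusted p of 0.05, the gene with the highest level of a list, defining markers near 0 and the 3 profiles nearest to *Cd80*. Other genes were named after their values were seen. Positions and exon overlaps came from GENCODE M21 (GRCm38), and promoter windows from RefSeq (GRCm38.p6). *Ighm* was not analysed here. *Pvrl2*, *Pvrl3*, *Emr1* and *4632428N05Rik* stand for *Nectin2*, *Nectin3*, *Adgre1* and *Vsir*.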

Additional observations from a re-analysis of the deposited data

How the results depend on the processing

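Over 120 values of the 10 members under 12 other settings, 95 kept direction and side of the unadjusted threshold, 12 lost the call, 10 gained one and 3 reversed. *Cd274* lost its call in every alternative, with log2 fold changes of 0.38 (DESeq2), 0.31 (upper quartile), 0.30 (library size alone), 0.39 (no filter), 0.39 (TPM over 0.1), 0.39 (replicate block), 0.38 (limma on log2(TPM + 1)), 0.38 (limma on log2(TPM + 0.1)) and 0.34 to 0.43 with 1 library left out. *Icosl* passed the unadjusted p at 1.04 (DESeq2), 1.05 (no filter), 1.05 (TPM over 0.1), 0.99 and 1.01 (limma with 1 and 0.1 added), and lay between 0.52 and 1.45 with 1 library left out. With 1 library left out, *Cd86* ranged from -0.15 to 0.46, *Cd276* from -0.77 to 0.012, *Cd83* from -1.05 to 0.44 and *Tnfsf4* from 0.24 to 1.31. With the replicate number as a block, *Tnfsf4* passed at 0.82. The labels share only a number between groups, same-numbered libraries deviated with a correlation of -0.054 across genes, and the block changed no call of a member other than those of *Cd274* and *Tnfsf4*.

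The number of higher members was 1 with upper quartile normalization, 1 with library size alone and 1 to 3 with a library left out (1 without WT 1 and 1 without *Sirt6* cKO 1). Over all 18547 genes tested, 751 were higher and 800 lower with upper quartile normalization, and 721 and 838 with library size alone. At an adjusted p the number of higher members was 1 with DESeq2, where 1.06% of genes were higher. The number of lower members was 0 to 1 with a library left out, the 1 being *Cd83* without WT 2. Higher ligands of the other list numbered 0 with upper quartile normalization, 0 with library size alone and 1 to 5 with a library left out. With a library left out, 421 to 1100 genes were higher and 314 to 827 lower, against 977 and 615, the lowest of both without *Sirt6* cKO 1. A group with a lone library is assumed to vary like the other. Upper quartile and library size scaling moved the median of all genes to -0.086 and -0.093. Relative to *Epcam*, a scaling chosen after the data were seen, the log2 difference was 0.46 for *Cd80*, 0.55 for *Icosl*, 0.35 for *Tnfsf4* and -0.84 for *Cd276*, and it reversed to -0.31 for *Cd86*, -0.088 for *Cd274*, -0.11 for *Pdcd1lg2* and -0.23 for *Cd70*. The causes were not tested. The intervals rest on a dispersion that edgeR shares across genes, and 2 libraries a group limit it.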

Other observations

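The cortical list of 7 genes had 2 higher genes, *Ly75* and *Dll4*, and 0 lower ones at an unadjusted p of 0.05 in edgeR's test. At that threshold 5.27% of all genes were higher and 3.32% lower. The cortical list summed to between 3180 and 4094 TPM in WT and between 2872 and 2973 TPM in the libraries labelled *Sirt6* cKO. Most of this sum was *Krt8*, with 2232 and 3195 TPM in WT against 2049 and 2225 TPM under the *Sirt6* cKO label. Of the others, *Prss16* and *Ctsl* were lower without overlap in CPM, *Ly75* and *Dll4* were higher, and *Psmb11* and *Cxcl12* overlapped. The list of 7 fibroblast and endothelial markers had 0 genes past that threshold with edgeR and 0 with DESeq2, and summed to between 91.2 and 106 TPM in WT and between 106 and 110 TPM in *Sirt6* cKO. Among 7 mTEC markers 3 were higher and 0 were lower at that threshold. The log2 fold changes were 0.48 for *Epcam*, 0.83 for *Foxn1* and 1.16 for *Ltbr*, the gene of the lymphotoxin β receptor. *Epcam* and *Foxn1* are not restricted to mTECs. In CPM 1 of the 7, *Cldn3*, was lower without overlap, and *Krt5* and *Krt14* overlapped. Among 10 dendritic cell markers 1, *Fscn1*, was higher, and among 5 B cell markers and 9 thymocyte markers 0 passed the threshold with edgeR and 0 with DESeq2. *Tnfrsf9*, the gene of the receptor 4-1BB, varied widely between replicates, since WT 1 and WT 2 had 27.1 and 0.765 TPM, and *Sirt6* cKO 1 and *Sirt6* cKO 2 had 17.0 and 124 TPM.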
